A study of Mus musculus with 6 samples.

Results

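The 10 genes described here encode plasma membrane amino acid transporters, the proteins that carry amino acids into and out of the cell. They were taken by name, Slc7a5, Slc3a2, Slc7a1, Slc7a3, Slc1a3, Slc1a4, Slc1a5, Slc38a1, Slc38a2 and Slc6a9, and all 10 were found among the 54532 genes of the table. RNA sequencing had been performed on MC3T3-E1 cells, a mouse pre-osteoblast line, kept for 3 days in osteogenic medium, which contains β-glycerophosphate, ascorbic acid and dexamethasone. The control group received this medium alone (3 samples) and the metformin group received it with 0.2 mM metformin (3 samples), so both groups share the line, the medium and the dexamethasone. The comparison asks which transcripts differ when osteogenic induction is carried out with the biguanide metformin. Only 1 cell line was sequenced, and in such bulk samples fewer cells of a type and less RNA per cell cannot be told apart.

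Osteoblasts need amino acids in bulk for collagen and other matrix proteins, and they depend on transporters for glutamine, proline, asparagine and the essential amino acids. These carriers work together. Sodium-coupled carriers such as SNAT2 (Slc38a2) load the cell with neutral amino acids, exchangers such as ASCT2 (Slc1a5) trade one neutral amino acid for another, and the LAT1 exchanger releases an internal amino acid to bring in leucine and other large neutral ones. LAT1 is a heterodimer of the light chain Slc7a5, which forms the transport path, and the heavy chain Slc3a2 (CD98hc), which brings this and several other light chains to the cell surface. Several of these genes are well known targets of ATF4, the transcription factor of the amino acid response.

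Values are FPKM, reads per gene scaled for gene length and library, and the reads recovered from them were 18399861 to 20652437 per control sample and 19256672 to 22111790 per metformin sample. Of 10 osteoblast markers 9 had a mean of at least 0.5 FPKM, with a summed level of 10079 to 11832 FPKM in the controls and 6829 to 7222 with metformin, while Alpl, which encodes alkaline phosphatase, lay between 2.44 and 3.84 FPKM. The list did not move one way: of the 9 tested, 2 were higher (the collagen genes Col1a1 and Col1a2, log2 fold changes 0.93 and 0.57), 3 were lower (the matrix protein genes Spp1, Ibsp and Dmp1, -1.50, -1.60 and -0.97) and 4, Runx2 and Alpl among them, were not called by limma-trend. Spp1, at 7704 ± 989.2 FPKM in the controls and 2704 ± 23.4 FPKM with metformin (SD, n = 3 each), carried the fall of the sum. Markers of endothelium (0 of 4), macrophages (1 of 5, Cd68), adipocytes (1 of 6, Fabp4) and skeletal muscle (1 of 4, Des) mostly lay under that level, and 3 of 5 chondrocyte markers reached it. The chondrocyte list summed to 29.9 to 43.6 FPKM in the controls and 29.0 to 31.0 FPKM with metformin, and in it Col10a1 went from a mean of 3.79 to 0.264 FPKM (log2 fold change -1.91, adjusted p = 0.000206 by limma-trend). The summed macrophage list was 1.97 to 2.18 FPKM in the controls and 1.12 to 1.35 FPKM with metformin (Itgam at 0), and that of skeletal muscle 1.196 to 1.87 and 2.07 to 2.40 FPKM (Myod1 and Myog at 0). The part of these differences, and of those of the osteoblast and chondrocyte markers, in the results was not tested. Control replicate 1 stood apart from the other controls. Its Pearson correlations with them over log2 values were 0.960 and 0.952, against 0.988 between controls 2 and 3 and 0.992 among the metformin samples, so results that rest on it are given with and without it. Without it, the osteoblast markers Bglap and Sp7 were also called, lower and higher (log2 fold changes -0.91 and 0.27, limma-trend adjusted p = 0.00314 and 0.0230). The chondrocyte markers Sox9 and Col2a1 were then called lower (-0.42 and -0.32, limma-trend adjusted p = 0.0019 and 0.0199). That fit called 23.4% of all tested genes higher and 20.4% lower. A total of 12681 genes reached a mean of 0.5 FPKM and were tested by limma-trend with log2(FPKM + 1) as the response. With metformin 13.2% of them were higher and 9.28% lower at an adjusted p under 0.05 (1670 and 1177 genes, 22.5% in either direction), and a correction for GC content turned this balance to 16.3% higher and 19.2% lower (2062 and 2433 genes).

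Of the 10 transporters, 8 passed the level filter, and 4 of these rose with metformin: Slc7a5, Slc7a1, Slc1a3 and Slc1a4. By the same test 13.2% of all tested genes were higher and 9.28% lower. None of the 8 transporters fell by limma-trend with all 6 samples, none had a negative change with an unadjusted p under 0.05, and voom on the recovered reads gave the same counts of 4 and 0. The 3 metformin samples lay above all 3 controls for these 4 genes, a separation in this direction that 23.6% of all tested genes showed. None of the 8 lay wholly below, as 20.5% of tested genes did, and 44.1% of tested genes were separated in either direction. The median log2 fold change of the 8 genes was 0.26, and that of all tested genes was 0.0053. Leaving out control replicate 1 kept these 4 calls and added a fall of Slc3a2, in a fit that called 23.4% of tested genes higher and 20.4% lower. The count of 4 was not stable: over 14 alternative fits the Slc1a4 call was lost in 9, whereas those of Slc7a5, Slc7a1 and Slc1a3 held in all.

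**Figure D1:**
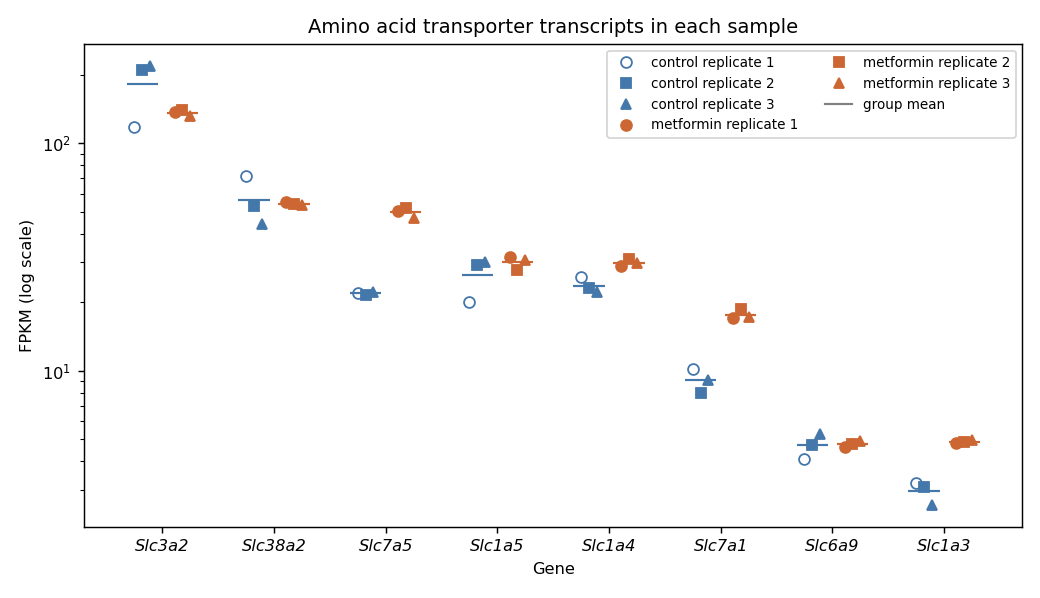
FPKM on a log axis of the 8 transporters with a mean of at least 0.5 FPKM, 1 point per sample, with control samples in blue, metformin samples in orange, control replicate 1 as an open circle and group means as lines. For Slc7a5, Slc7a1, Slc1a4 and Slc1a3 the metformin points lie above every control, and for Slc3a2, Slc1a5 and Slc38a2 control replicate 1 lies away from the other 2 controls.

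Slc7a5, the LAT1 light chain, showed the largest change of the tested transporters in the set. The gene (ENSMUSG00000040010) lies on chromosome 8, 121881150 to 121907694, on the minus strand. The 3 controls had 22.1, 21.4 and 22.3 FPKM, and the 3 metformin samples had 50.3, 51.9 and 47.1 FPKM. The controls were nearly equal and every metformin sample was above all of them. The mean went from 21.9 ± 0.454 FPKM to 49.8 ± 2.44 FPKM (SD, n = 3 each), 2.27 times the control level, with a log2 fold change of 1.15 (SE 0.08, adjusted p = 0.000218 by limma-trend). These values rest on 1494 to 4193 reads per sample. The call held in all 14 alternative fits, with log2 fold changes from 1.08 to 1.18. Slc7a5 lies inside the span of Gm20388 on the opposite strand, which had 0 FPKM in every sample.

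Slc3a2, the heavy chain, did not follow its partner. The gene (ENSMUSG00000010095, chromosome 19, 8706882 to 8723369) had 118, 209.9 and 218 FPKM in the controls and 137, 140.3 and 131 FPKM with metformin. Control replicate 1 was below every metformin sample, whereas the other controls were above them all. With all 6 samples the means were 182 ± 55.6 and 136 ± 4.79 FPKM (SD, n = 3 each), and the log2 fold change was -0.37 (95% interval -0.93 to 0.19, adjusted p = 0.313 by limma-trend). Without control replicate 1 the control mean was 214 FPKM, the log2 fold change was -0.65 (SE 0.06), and the fall passed the test (adjusted p = 0.000416 by limma-trend). With the GC correction and all 6 samples the log2 fold change was -0.41 (adjusted p = 0.131 by limma-trend).

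The 2 chains of LAT1 can be set side by side, since FPKM is a level per gene length. The Slc7a5 level was 18.7%, 10.2% and 10.2% of the Slc3a2 level in the controls and 36.7%, 37.0% and 36.0% with metformin. Every metformin sample was above every control, also above control replicate 1, whose higher ratio came with its low Slc3a2. Slc3a2 remained the most abundant of the 10 transcripts in both groups. Slc3a2 made up 42.9% to 61.7% of the summed FPKM of the 10 genes in the controls and 41.0% to 42.1% with metformin, and Slc7a5 made up 6.07% to 8.02% and 14.8% to 15.6%. The sum of the 10 genes was 275, 352.6 and 353.8 FPKM in the controls and 329, 333 and 319 FPKM with metformin. Its means were 327 ± 45.1 and 327 ± 7.51 FPKM (SD, n = 3 each), and this equality rests on control replicate 1. That sample was below every metformin sample, whereas the other controls were above them all. Leaving Slc3a2 out of the sum, it was 136 to 157 FPKM in the controls and 188 to 193 FPKM with metformin (means 145 and 191 FPKM). The rise was not even over the remaining genes: Slc7a5 had means of 21.9 and 49.8 FPKM, and Slc38a2 had 56.2 and 54.1 FPKM.

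**Figure D2:**
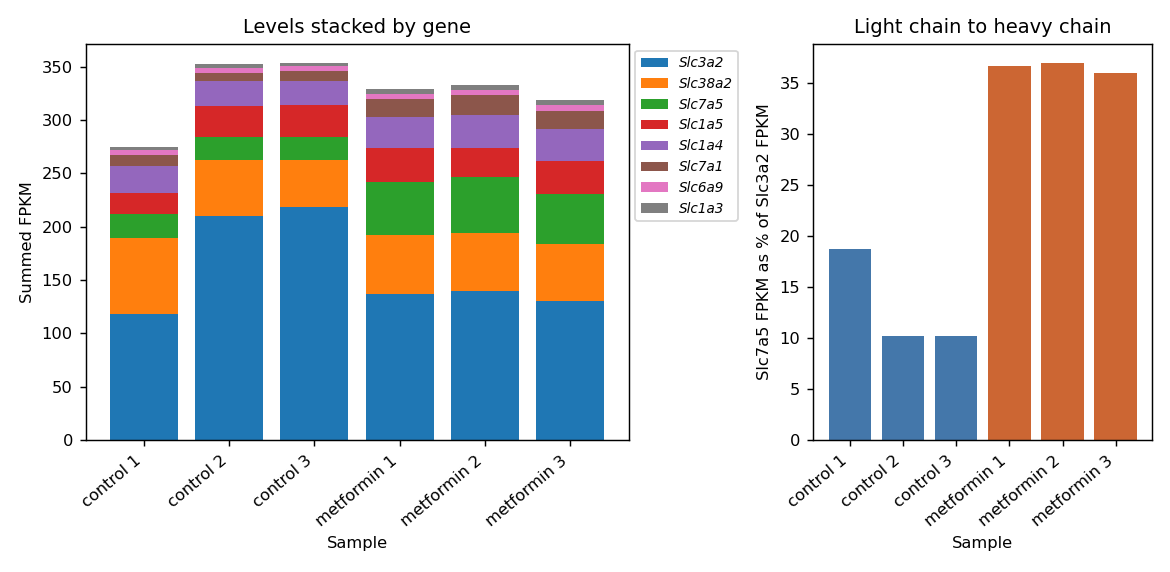
Left, FPKM of the 8 tested transporters stacked for each sample. Right, Slc7a5 FPKM as a percentage of Slc3a2 FPKM in each sample, with controls in blue (10.2% to 18.7%) and metformin samples in orange (36.0% to 37.0%). The Slc3a2 segment is the tallest in every bar and is shortest in control replicate 1.

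Slc7a1 encodes CAT-1, the carrier of arginine, lysine and ornithine. This gene (ENSMUSG00000041313, chromosome 5, 148327410 to 148399904) had 10.2, 8.01 and 9.16 FPKM in the controls and 17.1, 18.6 and 17.2 FPKM with metformin. The groups did not overlap, and the lowest metformin sample was well above the highest control, which was control replicate 1. The mean rose from 9.14 ± 1.12 to 17.6 ± 0.858 FPKM (SD, n = 3 each), a log2 fold change of 0.88 (SE 0.10, adjusted p = 0.00172 by limma-trend). The log2 fold change was 0.80 to 0.96 over the 14 alternative fits, each of which kept the call. Slc7a3 encodes the related cationic carrier CAT-3 and was barely present, with 7 to 25 reads in a sample. Its levels were 0.130, 0.315 and 0.134 FPKM in the controls and 0.133, 0.121 and 0.0950 FPKM with metformin, which overlap, and it was not tested because its mean of 0.155 FPKM was under the limit. Fitted without that limit, its log2 fold change was -0.09 (95% interval -0.26 to 0.07, adjusted p = 0.515 by limma-trend). At such low levels, adding 1 before the log pulls this value and its interval towards 0. The ratio of mean FPKM was 0.60, so a change in Slc7a3 is not excluded.

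In the Slc1 family, the glutamate and aspartate carrier Slc1a3 (GLAST) and the exchanger of alanine, serine, cysteine and threonine Slc1a4 (ASCT1) rose, and the glutamine exchanger Slc1a5 (ASCT2) was not called. Slc1a3 (ENSMUSG00000005360, chromosome 15, 8634124 to 8710764) had 3.21, 3.09 and 2.58 FPKM in the controls and 4.82, 4.87 and 4.97 FPKM with metformin. The metformin samples were close together and all above the controls. Its log2 fold change was 0.58 (SE 0.09, adjusted p = 0.00564 by limma-trend), between 0.50 and 0.73 in the 14 alternative fits, and the ratio of mean FPKM was 1.65. The short gene Gm37310 lies within Slc1a3 on the same strand, at 0.0343 to 0.108 FPKM.

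Slc1a4 (ENSMUSG00000020142, chromosome 11, 20302180 to 20332713) had 25.7, 23.1 and 22.2 FPKM in the controls and 28.8, 30.9 and 29.8 FPKM with metformin. All metformin samples were above all controls, but the gap was small beside that of Slc7a5. The mean was 1.26 times the control mean, with a log2 fold change of 0.32 (SE 0.09, adjusted p = 0.0428 by limma-trend). This call was the weakest of the 4. Leaving out any 1 sample other than control replicate 1 ended it (adjusted p = 0.0833 to 0.176 by limma-trend), as did the GC correction (adjusted p = 0.0732) and fitting genes of every level (adjusted p = 0.0507), whereas without control replicate 1 the adjusted p was 0.00257.

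Slc1a5 (ENSMUSG00000001918, chromosome 7, 16781340 to 16798274) had 19.96, 29.0 and 29.97 FPKM in the controls and 31.7, 27.8 and 30.7 FPKM with metformin. Controls 2 and 3 lay within the range of the metformin samples and control replicate 1 lay below it. The log2 fold change was 0.20 (95% interval -0.18 to 0.59, adjusted p = 0.417 by limma-trend) and, without control replicate 1, 0.02 (95% interval -0.14 to 0.19, adjusted p = 0.806 by limma-trend).

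Slc38a2 and Slc38a1 encode the sodium-coupled neutral amino acid carriers SNAT2 and SNAT1, and the genes are near neighbours on chromosome 15 at 96687392 to 96699730 and 96571418 to 96642913. Slc38a2 (ENSMUSG00000022462) had 71.6, 53.1 and 44.0 FPKM in the controls and 55.0, 54.1 and 53.2 FPKM with metformin. The metformin samples were nearly equal and lay inside the spread of the controls. Its log2 fold change was -0.03 (95% interval -0.44 to 0.38, adjusted p = 0.931 by limma-trend), and without control replicate 1 the sign turned to 0.16 (95% interval -0.04 to 0.36, adjusted p = 0.172 by limma-trend). Slc38a1 (ENSMUSG00000023169) had 3, 2 and 0 reads in the controls and 2, 2 and 0 reads with metformin, at most 0.00953 FPKM. At 0 reads a level of up to 0.00886 FPKM (control replicate 3) or 0.00893 FPKM (metformin replicate 3) was possible, counting 3 reads as the limit for counting error, so no change in Slc38a1 was detectable at this depth. Slc38a2 was thus detected at 44.0 FPKM or more in every sample while its neighbour and relative Slc38a1 was hardly detected in any.

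Slc6a9 encodes GlyT1, a sodium- and chloride-coupled glycine carrier. The gene (ENSMUSG00000028542, chromosome 4, 117834506 to 117875198) had 4.10, 4.75 and 5.30 FPKM in the controls and 4.61, 4.78 and 4.93 FPKM with metformin. The groups overlapped entirely, with the metformin samples inside the range of the controls. The log2 fold change was 0.02 (95% interval -0.22 to 0.26, adjusted p = 0.912 by limma-trend), and without control replicate 1 it was -0.06 (adjusted p = 0.526 by limma-trend). Its longest transcript shares 1261 identical bases with Ccdc24 (0.0204 to 0.0914 FPKM) and 388 with Gm17114 (0 FPKM), and the gene overlaps B4galt2 (4.34 to 10.2 FPKM) on the opposite strand. Whether counting used strand is not given in the sources used here, so reads of these overlaps could be shared and the Slc6a9 level is uncertain. The other 9 genes had no transcript of another gene at 95% identity over 200 bases.

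**Figure D3:**
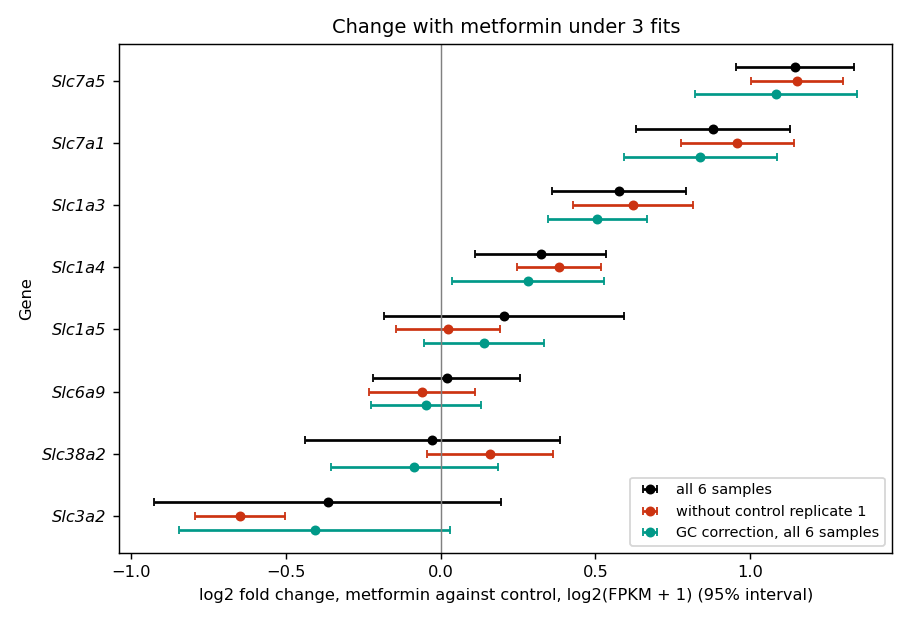
Log2 fold change of metformin against control on log2(FPKM + 1), with 95% intervals, for the 8 tested transporters with all 6 samples (black), without control replicate 1 (red) and with the GC correction (green). The intervals of Slc7a5, Slc7a1, Slc1a3 and Slc1a4 lie above 0 in each fit, although Slc1a4 was not called after adjustment with the GC correction. That of Slc3a2 lies below 0 only without control replicate 1.

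Control replicate 1 differed from the other controls along with GC content, and the transporters were spread over that trend. Over 12663 tested genes, which share the libraries and are not independent, the Spearman correlation between its deviation and the GC content of the longest transcript was -0.668. Slc3a2 (GC 53.4%) was 0.85 lower in control replicate 1 than the mean of the other controls on the log2(FPKM + 1) scale (a difference of -0.85), a deviation below those of all but 4.76% of tested genes. Slc1a5 (GC 56.7%) had a deviation of -0.54 and Slc38a2 (GC 44.7%) one of 0.56. Slc7a5 (GC 56.3%) had a deviation of 0.01, and those of Slc7a1, Slc1a3 and Slc1a4 were 0.23, 0.14 and 0.18, in the direction of the metformin samples. A deviation of more than 0.5 in either direction was found for 23.1% of tested genes. The part of this library in the Slc3a2, Slc1a5 and Slc38a2 values is given above by the fits without it. The GC correction left the log2 fold changes of Slc7a5, Slc7a1 and Slc1a3 at 1.08, 0.84 and 0.51, each still called (adjusted p = 0.000534, 0.00128 and 0.00171 by limma-trend).

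**Figure D4:**
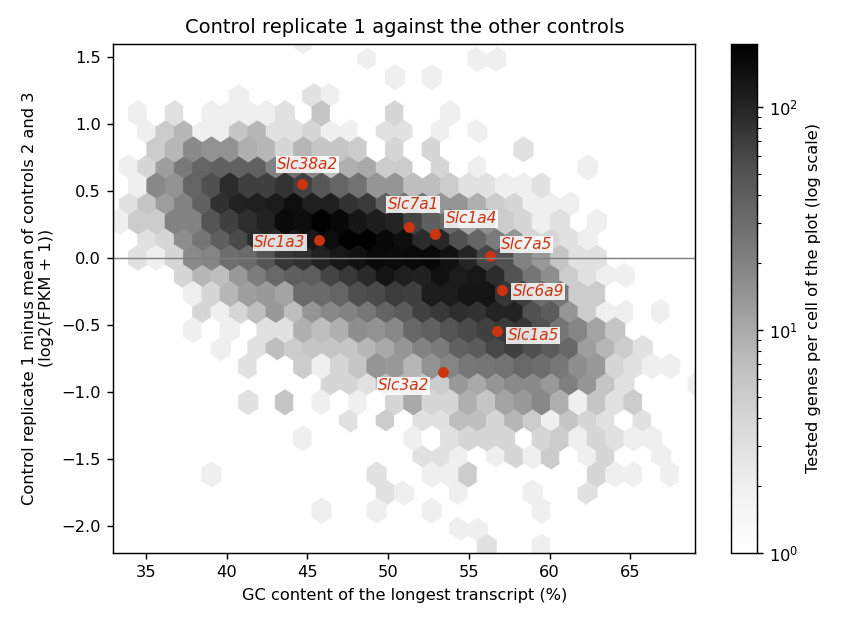
Deviation of control replicate 1 from the mean of controls 2 and 3 on log2(FPKM + 1) against the GC content of the longest transcript, with the density of tested genes in grey and the 8 transporters in red. The grey cloud slopes down with GC content, and Slc3a2 lies at -0.85 near its lower edge, while a few genes lie beyond the axes.

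The order of the levels was alike in both groups apart from Slc7a5 and Slc1a3. In the controls it ran from Slc3a2 (182 FPKM) through Slc38a2 (56.2), Slc1a5 (26.3), Slc1a4 (23.7), Slc7a5 (21.9), Slc7a1 (9.14), Slc6a9 (4.72) and Slc1a3 (2.96) to Slc7a3 (0.193) and Slc38a1 (0.00502). The ranges of Slc1a5 and Slc1a4 overlapped, and so did those of Slc1a4 and Slc7a5, so the order of these neighbours was not resolved. With metformin Slc7a5 (49.8 FPKM) stood next after Slc38a2 and apart from Slc1a5 (30.04) and Slc1a4 (29.8), which were not resolved from each other. Slc1a3 (4.89 FPKM) was above Slc6a9 (4.77) in each metformin sample, although their ranges overlapped. Within the metformin group the highest sample was 1.03 to 1.14 times the lowest for the 8 genes, and within the controls 1.04 times for Slc7a5 to 1.85 times for Slc3a2.

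Start site sequence is shown for the 3 genes that rose and have an entry in the RefSeq promoter table (GRCm38.p6), and for Slc3a2, the other chain of LAT1. Entries, 9 in all, were found for 6 of the 10 genes, Slc3a2, Slc7a1, Slc1a3, Slc1a4, Slc38a2 and Slc6a9, with further start sites for Slc7a1 and Slc6a9. Each line runs from 100 bases before to 20 bases after the start site, on the strand of the gene, and capitals mark matches on either strand to TGATGNAA, the core of the element bound by ATF4 with C/EBP partners, or to CCAAT, the box bound by NF-Y. The regions are chr5:148399885-148400004 (Slc7a1), chr15:8710788-8710907 (Slc1a3), chr11:20332694-20332813 (Slc1a4) and chr19:8713878-8713997 (Slc3a2), all on the minus strand.
Slc7a1: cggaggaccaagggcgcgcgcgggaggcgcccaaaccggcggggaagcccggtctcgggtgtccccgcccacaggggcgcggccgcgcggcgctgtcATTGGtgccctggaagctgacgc
Slc1a3: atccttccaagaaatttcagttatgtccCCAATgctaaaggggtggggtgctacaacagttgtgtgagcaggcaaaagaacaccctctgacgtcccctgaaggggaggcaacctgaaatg
Slc1a4: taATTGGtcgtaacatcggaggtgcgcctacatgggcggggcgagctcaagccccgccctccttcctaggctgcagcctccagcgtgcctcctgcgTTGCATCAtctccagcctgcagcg
Slc3a2: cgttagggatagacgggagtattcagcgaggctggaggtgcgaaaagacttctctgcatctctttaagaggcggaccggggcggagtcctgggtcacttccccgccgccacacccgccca

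Over the whole windows, from 250 bases before to 50 after the start, TGATGNAA matched only in Slc1a4 among these 6 genes, on the reverse strand from position -4 to 4, across the start site itself (position 1, with no position 0). Of all 32851 promoters of this length in the table, 3.97% held this motif on either strand. CCAAT matched in Slc7a1 (at the start site shown, reverse strand, from -3 to 2), Slc1a3 (3 matches) and Slc1a4 (2 matches), and in 37.4% of all promoters. The window of the other Slc7a1 start site (148392815) held neither motif. The Slc3a2, Slc38a2 and Slc6a9 windows held neither motif. The start site in the Slc3a2 entry lies inside the gene span of the deposited table, and elements in introns or farther away lie outside these windows.

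Other plasma membrane amino acid transporters were mostly silent in these cells. Of a list of 31, 25 were under the limit of 0.5 FPKM, 14 had a mean under 0.01 FPKM and 8 had no read in any sample. Of the 6 tested, 1 rose, 1 fell and 4 were not called, beside 13.2% higher and 9.28% lower of all tested genes, with a median log2 fold change of 0.10. Slc6a6, the taurine transporter, had 51.2, 43.4 and 48.3 FPKM in the controls and 104, 105.6 and 102 FPKM with metformin. The metformin samples were all above the controls, and the log2 fold change was 1.11 (SE 0.09, adjusted p = 0.000397 by limma-trend). Slc36a2, a proton-coupled carrier of small neutral amino acids, had 10.8, 10.8 and 8.85 FPKM in the controls and 5.67, 4.84 and 4.68 FPKM with metformin. It fell by 0.88 on the log2 scale (SE 0.11, adjusted p = 0.00231 by limma-trend), and both calls held in all 14 alternative fits. Slc7a6, another light chain of Slc3a2, lay between 21.1 and 24.6 FPKM in the controls and between 21.6 and 22.3 FPKM with metformin (log2 fold change -0.06, adjusted p = 0.647 by limma-trend). Slc7a2, the cationic carrier CAT-2, lay between 9.39 and 12.8 FPKM and between 10.9 and 11.8 FPKM (log2 fold change 0.06, adjusted p = 0.747 by limma-trend).

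Slc7a11, the cystine and glutamate exchanger chain that also pairs with Slc3a2, was named after its values were seen. It had 0.157, 0.0993 and 0.0621 FPKM in the controls and 0.322, 0.310 and 0.442 FPKM with metformin, under the limit of 0.5 FPKM. The groups did not overlap, a separation in this direction that 23.6% of all tested genes showed. Other listed genes under the limit were separated too. Slc1a6, Slc6a7, Slc7a8 and Slc38a4 were higher with metformin, and Slc3a1, a heavy chain related to Slc3a2, and Slc1a2 were lower. Mean FPKM went from 0.0311 to 0.198 for Slc1a6 and from 0.325 to 0.136 for Slc3a1. Among genes with at least 10 reads in every sample the log2 fold change of Slc7a11 was 0.30 (SE 0.06, adjusted p = 0.0157 by limma-trend). At such low levels, adding 1 before the log makes this value too small, and the ratio of mean FPKM was 3.37.

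Genes of the amino acid response, which senses amino acid shortage through the kinase Gcn2 (Eif2ak4) and acts through ATF4, held calls in both directions. Of 9 tested, 1 rose, 3 fell and 5 were not called, where 13.2% of all tested genes rose and 9.28% fell. Asns, which encodes asparagine synthetase, rose from 61.6 to 64.6 FPKM in the controls to 85.1 to 87.7 FPKM with metformin (log2 fold change 0.45, SE 0.08, adjusted p = 0.00813 by limma-trend). The stress-induced transcription regulators Ddit3 (CHOP), Atf3 and Nupr1 had log2 fold changes of -1.15, -1.06 and -1.23 (limma-trend adjusted p = 0.0129, 0.00269 and 0.0380). Of the 6 fits that each left out 1 sample, Atf3 kept its call in 6, Asns and Ddit3 in 3 and Nupr1 in 1, the fit without control replicate 1. Atf4 itself had 68.7, 140.6 and 142 FPKM in the controls and 144, 149.4 and 149.1 FPKM with metformin, with control replicate 1 alone far below the rest. Its log2 fold change was 0.40 (95% interval -0.26 to 1.07, adjusted p = 0.345 by limma-trend), and without control replicate 1 it was 0.06 (95% interval -0.07 to 0.19, adjusted p = 0.403 by limma-trend). Cebpb, which encodes a C/EBP partner of ATF4, had 71.9, 339.5 and 324 FPKM in the controls and 171 to 192 FPKM with metformin, and was called lower only without control replicate 1 (log2 fold change -0.87, adjusted p = 0.000271 by limma-trend).

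**Figure D5:**
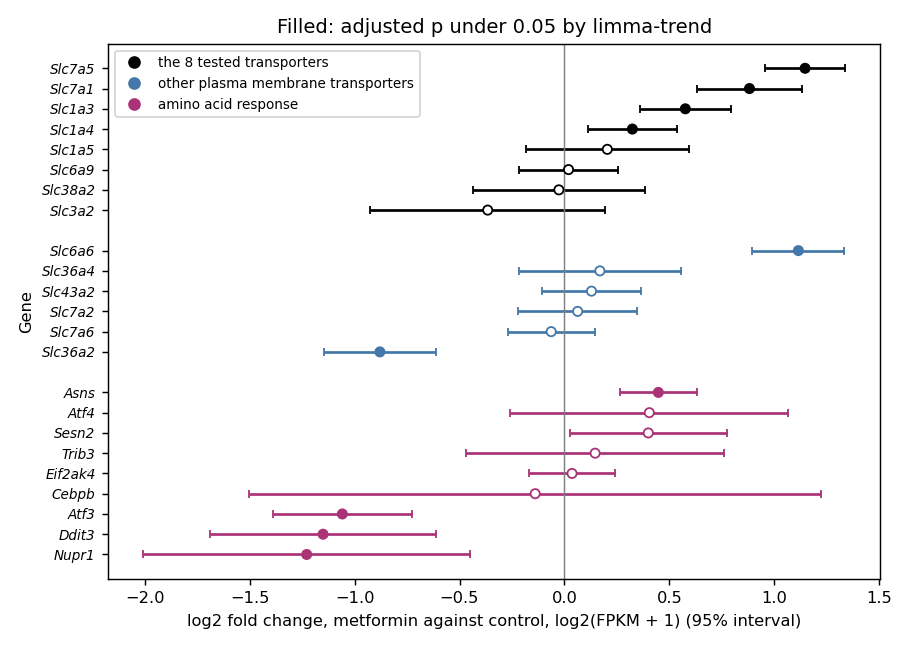
Log2 fold change of metformin against control on log2(FPKM + 1) with 95% intervals, all 6 samples, for the 8 tested transporters (black), 6 other plasma membrane transporters (blue) and 9 genes of the amino acid response (purple), with filled points for an adjusted p under 0.05. Slc7a5 and Slc6a6 lie farthest to the right at 1.15 and 1.11, and Nupr1, Ddit3 and Atf3 farthest to the left.

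Genes with the profile most like that of the LAT1 chains were sought among 7452 genes with a mean of at least 5 FPKM, by the Euclidean distance over the 6 samples between log2(FPKM + 1) values centred on the control mean. Nearest to Slc7a5 were Mcm7 (distance 0.0531), a subunit of the replicative helicase, Myh10 (0.129), a non-muscle myosin heavy chain, and Pgk1 (0.147), a glycolytic enzyme. Their log2 fold changes of 1.16, 1.11 and 1.11 were close to the 1.15 of Slc7a5. Nearest to Slc3a2 were Adck2 (0.126), Slc35e4 (0.129) and Klhdc3 (0.134), whose log2 fold changes were -0.33, -0.31 and -0.33. All 3 were low in control replicate 1, as Slc3a2 was. Distances chosen as the smallest of so many are a description only. The like fold changes and the low control replicate 1 follow from this way of choosing and are no separate result.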

How the data were processed

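The authors deposited 1 table of 54532 genes with 6 columns of per-sample values, matched to samples by the labels. It names no unit. The deposited values were read as FPKM: times the listed gene length, 100% of the values above 0 were whole multiples of 1 step per sample (tolerance 0.001), and the columns summed to 293994 to 341194, whereas TPM columns share 1 fixed sum. Read as FPKM, the steps correspond to adjusted library sizes of 18260074 to 21790540, near the reads recovered. The gene length was listed by the authors, in base pairs, with no other definition. The submitters' processing notes name Bowtie 0.12.2 and the builds mm8 and mm9, whereas the deposited coordinates of all 10 genes equal those of GENCODE M21 (GRCm38). Columns of other samples numbered 0.

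Groups were compared with limma 3.58.1 (R 4.3.3), empirical Bayes with an intensity trend on log2(FPKM + 1), two-sided, for genes with a mean of at least 0.5 FPKM, with Benjamini-Hochberg adjustment over 12681 genes and a threshold of 0.05. With this pseudocount, fold changes of low genes come out too small. The fit was tested on simulated data in which no library stood apart, so that test does not bear on control replicate 1. Replicates are biological replicates according to the paper. The main fit was planned without a block, and same-numbered samples did not deviate together. Where a symbol had 2 rows (Ddit3), the row with the higher mean was taken. GC content came from the longest GENCODE transcript, near-identical transcripts from BLAST+ 2.17.0, promoters from RefSeq and figures from matplotlib 3.10.9. The GC correction subtracts a spline with 5 degrees of freedom from each library's deviation.

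The transporters and lists were chosen with earlier results of these data known. Named were the 10 genes, listed relatives past the threshold or among the 3 highest, and the 3 nearest profiles to each LAT1 chain. Alternatives changed the scaling (total reads), the pseudocount (0.1) or the filter (none, or at least 10 reads per sample), or used voom on reads recovered from the steps, the replicate block, the GC correction, both together, or all samples but 1.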

Additional observations from a re-analysis of the deposited data

How the results depend on the processing

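The calls of Slc7a5, Slc7a1 and Slc1a3 held in all 14 alternative fits, and that of Slc1a4 was lost in 9. Of the 10 transporters, 3 to 4 rose over the alternatives, and 0 to 1 fell in the 6 fits that each left out 1 sample, the 1 being Slc3a2 without control replicate 1. The log2 fold change of Slc38a2 ranged from -0.19 to 0.16 in those fits and was positive only without control replicate 1. That of Slc6a9 ranged from -0.060 to 0.092 in them, and was -0.0044 with scaling by total reads and -0.047 with the GC correction, with or without the replicate block. Of the other plasma membrane transporters, 3 rose and 2 fell with no filter on low values, 2 rose with at least 10 reads in every sample (both filters test more of the low genes, Slc7a11 among them), and 1 to 2 rose when 1 sample was left out (Slc36a4 without control replicate 1). Over all tested genes, 938 to 2969 were higher and 495 to 2590 lower when 1 sample was left out, most without control replicate 1. Lower genes numbered 2433 with the GC correction and 1888 with it and the replicate block. With the replicate block alone 698 were lower and 1161 higher, and of the transporters 3 rose, Slc1a4 being lost (adjusted p = 0.137 by limma-trend). The deviations of control and metformin samples with the same number correlated at -0.053, 0.00027 and -0.055, and the labels do not pair them. The median shift of a tested gene under the GC correction was -0.054. The cause of these changes was not tested. Groups of 3 limit the precision, and Slc38a1 and Slc7a3 are limited by 0 to 3 and 7 to 25 reads.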

Other observations

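Amino acid carriers of lysosomes and mitochondria were examined as a separate list of 13 genes, of which 11 were tested, 1 rose, 4 fell and 6 were not called with metformin, with a median log2 fold change of -0.18. Of all tested genes 13.2% rose and 9.28% fell. The cystine exporter of lysosomes, Ctns, had 15.0, 14.6 and 13.7 FPKM in the controls and 7.46, 7.17 and 7.80 FPKM with metformin (log2 fold change -0.86, SE 0.08, adjusted p = 0.000585 by limma-trend). Log2 fold changes were -0.52 for Slc38a7, a glutamine and asparagine carrier of lysosomes, -0.50 for Pqlc2, the cationic amino acid exporter of lysosomes, and -0.42 for Slc25a38, the glycine carrier of mitochondria (limma-trend adjusted p = 0.0128, 0.0319 and 0.00783). The metformin samples lay below all controls for 6 of the 11 tested carriers, these 4 and the uncalled Slc38a9 and Slc25a44, and above them for 2, beside 20.5% and 23.6% of all tested genes. Slc25a13, the aspartate and glutamate carrier of mitochondria known as citrin, rose from 9.96, 7.56 and 6.79 FPKM to 17.5, 17.7 and 17.2 FPKM (log2 fold change 1.04, SE 0.13, adjusted p = 0.00247 by limma-trend). The relative of citrin, Slc25a12, had 14.6 to 17.3 FPKM in the controls and 15.6 to 16.3 FPKM with metformin (log2 fold change 0.0033, adjusted p = 0.984 by limma-trend).

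In the fits that each left out 1 of the 6 samples, Ctns and Slc25a13 kept their calls in 6, Slc25a38 in 4, Slc38a7 in 3 and Pqlc2 in 2.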
